A study of Mus musculus with 5 samples.

Results

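Integrins are cell surface receptors made of an alpha and a beta chain, and 10 genes that encode such chains were examined here for chromatin recovered by an antibody to the transcription factor c-Maf. The genes were Itgam, Itgax, Itgad, Itgal and Itgb2, Itgav and Itgb5, and Itga4, Itgb7 and Itgb1. They are 10 of 21883 protein-coding genes on assembled chromosomes in a RefSeq gene table of GRCm38.p6, the assembly of mm10. Each gene's window was its span with 50 kb on each side. The windows held 34 of the 115354 deposited peaks. The set was selected on the c-Maf antibody peaks themselves, with the peaks of both libraries at Itgam and Itgb5 already known, so those peaks are given as a description with no test.

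The data came from chromatin immunoprecipitation followed by sequencing (ChIP-seq) of bone marrow macrophages from mice of the C57Bl/6 background. All 5 samples carry the same cell type label, which names cells polarized in culture to M2, the alternatively activated state, whereas every title carries M0 and no label explains it. Formaldehyde-fixed, sonicated chromatin was precipitated with a c-Maf antibody (2 libraries, numbers 3 and 4) or, for the isotype control, with normal rabbit IgG (2 libraries, numbers 3 and 4). The fifth sample, the input of number 4, was the control in all 4 peak calls and was used in no other way. The design text calls the numbers biological replicates, and no label gives the sex, age or number of animals behind a library. Peak lists hold no expression values, so the cell type was not checked against markers.

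c-Maf is a basic leucine zipper protein that binds DNA as a dimer at the Maf recognition element, a palindrome whose arms read TGCTGA. It is known in macrophages as a factor of the mature, anti-inflammatory state. The beta chain CD18, encoded by Itgb2, pairs with CD11a, CD11b, CD11c or CD11d, encoded by Itgal, Itgam, Itgax and Itgad, to form the leukocyte integrins. These receptors serve adhesion to endothelium and the uptake of complement-coated particles. The alpha chain encoded by Itgav pairs with that of Itgb5 in a receptor for vitronectin that also takes part in the clearance of dying cells, and the chain encoded by Itga4 pairs with those of Itgb7 or Itgb1 in receptors for vascular adhesion molecules.

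Depth was nearly equal, from 21655683 to 22017759 tags per antibody library after removal of duplicates. List length was not. Numbers 3 and 4 gave 23434 and 17620 peaks with the c-Maf antibody, and 58732 and 15568 with the isotype. The weakest peaks of the isotype list of number 3 had a summit pileup of 2.94 scaled tags at these genes, below the lowest of 3.88 to 3.95 in the other 3 lists. Fragment lengths in the peak calls were 63 and 60 bp for the c-Maf antibody (numbers 3 and 4) and 53 and 56 bp for the isotype. Tags were 50 bp. The median peak length of each list equalled its fragment length, so c-Maf antibody peaks of 63 or 60 bp are of median length. The same 63 bp (number 3) and 60 bp (number 4) were also the shortest c-Maf antibody peaks at the 10 genes. The part of fragment length in list length was not tested. A peak's pileup is the number of tags stacked at its summit, scaled by the authors towards the smaller of library and input, and pileups at the 10 genes stood for 3 to 12 tags. Fold enrichment is the authors' ratio of pileup to the input level assigned to the peak, with 1 added to both. The genes were chosen on these peaks and there are 2 libraries of each antibody, so the values are described and no test over libraries was made.

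DNA letters were at hand only for promoters, the 250 bases before a RefSeq start site, which the table gave for 7 of the 10 genes. None of these 7 held a peak of any library between 250 bases before the start site and 50 bases after it. The share of all promoters with such a peak was not computed. The sequences before the start sites of Itgam and Itgb5 are shown because these genes hold the regions described next. Capitals mark GAGGAA, the core read by the myeloid factor PU.1, on either strand; TGCTGA and TGANTCA, the core read by AP-1 factors, were also searched on both strands and share bases where a full Maf recognition element occurs.
Itgam, chr7:128062390-128062639, plus strand: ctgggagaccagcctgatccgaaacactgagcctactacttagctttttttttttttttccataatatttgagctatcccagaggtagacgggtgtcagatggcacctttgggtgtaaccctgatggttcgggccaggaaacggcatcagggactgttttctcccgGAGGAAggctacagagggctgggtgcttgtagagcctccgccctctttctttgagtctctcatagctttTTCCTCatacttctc
Itgb5, chr16:33829415-33829664, plus strand: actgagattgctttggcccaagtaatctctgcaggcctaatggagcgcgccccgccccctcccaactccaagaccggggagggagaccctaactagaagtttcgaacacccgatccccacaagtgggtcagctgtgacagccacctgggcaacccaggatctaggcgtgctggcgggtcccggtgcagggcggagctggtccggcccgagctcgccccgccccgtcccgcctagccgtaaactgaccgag
The Itgam stretch held GAGGAA 84 bases before the start site and its reverse, TTCCTC, 15 bases before it. The Itgb5 stretch held none of the 3 motifs. GAGGAA was also found before Itgav and Itgb1, and it occurs in 23.1% of 27025 promoters of the table. TGANTCA was found before Itgax alone among the 7 and occurs in 6.87% of promoters. TGCTGA, found in 15.8% of promoters, was in none of the 7. A match is a match of letters and not a measured binding site.

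Itgam and Itgb5 each held 1 c-Maf-only region, that is, a stretch where peaks of both c-Maf antibody libraries overlapped and no isotype peak did. No other of the 10 genes held one in its window. Among all protein-coding genes, 3.17% had such a region in the gene or within 50 kb, and 0.946% inside the gene. Both integrin regions lay inside their gene, Itgam's near the start and Itgb5's far down the gene. Since the genes were picked for these peaks, nothing is read from the count of 2.

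At Itgam, which encodes CD11b, a standard surface marker of macrophages and other myeloid cells, the region spanned 131 bp at chr7:128063612-128063742. It began 972 bp inside the gene, and the summits lay 1005 bp (number 3) and 1031 bp (number 4) after the start site, 26 bp apart. The c-Maf antibody library of number 3 had a 108 bp peak with a summit pileup of 5.82, which stands for 6 tags (95% exact Poisson interval 2.20 to 13.1, counting error only). The library of number 4 had a 96 bp peak with a pileup of 7.89, or 8 tags (3.45 to 15.8). Input levels assigned to these peaks were 0.50 and 0.47 scaled tags, which gave fold enrichments of 4.55 and 6.03. A peak of number 3 at Itga4 had the same level of 0.50, and 0.47 was the lowest of number 4 at the 10 genes. Whether these levels reflect input tags at Itgam or a genome-wide minimum of the peak calls was not tested. The fold enrichments and q-values of the region rest on them. The tag intervals of the 2 libraries, wide at 6 and 8 tags, overlapped, and no agreement between the libraries is read from that.

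The 2 Itgam peaks differed in rank. The number 4 peak stood at percentile 98.5 of its list by p, with a −log10 q of 1.72, past a q-value of 0.05. The number 3 peak stood at percentile 82.3 with a −log10 q of 0.28, so it did not pass. Among the 491 c-Maf-only regions of the genome, the Itgam region ranked 82nd by mean percentile. The nearest isotype peaks lay 60.1 kb (number 3) and 224.7 kb (number 4) away.

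At Itgb5, which encodes the beta chain that pairs with the Itgav product, the region spanned 227 bp at chr16:33922391-33922617. It began 92.7 kb inside the 119.7 kb gene, with 26.7 kb left to the far boundary. In the library of number 3 the peak covered all 227 bp, with a summit pileup of 11.65, or 12 tags (95% exact Poisson interval 6.20 to 21.0). In the library of number 4 it covered 99 bp within that stretch, with a pileup of 8.88, or 9 tags (4.12 to 17.1). The summits were 60 bp apart. Fold enrichments were 7.67 and 6.11, over input levels of 0.65 and 0.62 scaled tags.

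The Itgb5 region was the stronger of the pair. Its peaks stood at percentiles 99.8 and 98.9 of their lists, and with −log10 q values of 5.05 and 1.97 both passed a q-value of 0.05. Of the 491 c-Maf-only regions, 36 did so in both libraries, and the Itgb5 region ranked 20th by mean percentile. The median region was 125 bp long, against 227 bp here and 131 bp at Itgam, with median pileups of 6.79 in number 3 and 5.92 in number 4. The nearest isotype peaks were 39.2 kb (number 3) and 146.3 kb (number 4) away, the former inside the gene.

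**Figure D1:**
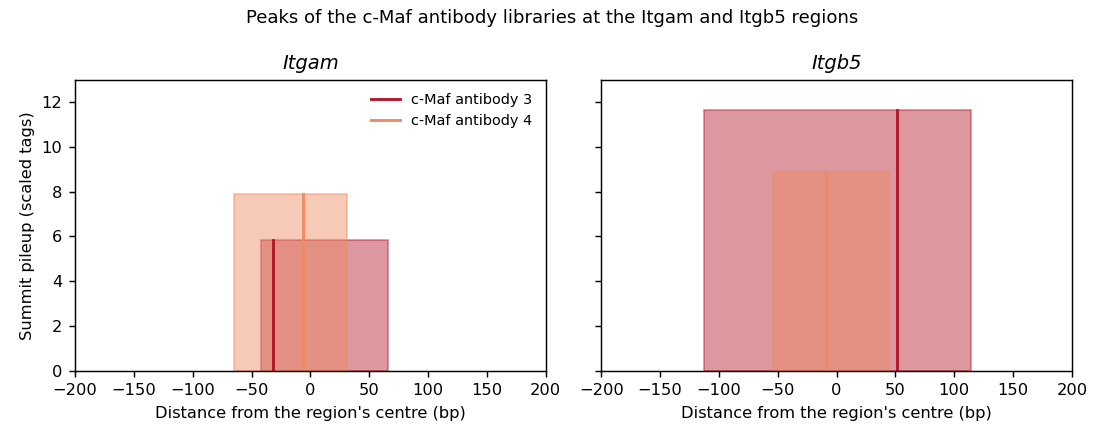
Peaks of the c-Maf antibody libraries at the regions in Itgam and Itgb5. The x axis is the distance in bp from the region's centre and the y axis the summit pileup in scaled tags; boxes span each peak and vertical lines mark summits. Box height is the summit value, not a profile. Itgam has 5.82 (number 3) and 7.89 (number 4), Itgb5 has 11.65 and 8.88, and no isotype peak falls in the stretch drawn.

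The window of Itgb5 held more peaks than any other, 10 in all, and most came from 1 library of each antibody. Itgb5 is also the longest of the 10 genes, at 119.7 kb, so its window is the widest. The part of length in the count was not tested. The c-Maf antibody library of number 3 had 4. They were the peak of the shared region, a 191 bp peak 4.6 kb before it (chr16:33917589-33917779, pileup 8.74, fold 4.87), an 81 bp peak 43.1 kb before it (pileup 5.82, fold 4.29), and one in the neighbouring gene Kalrn (pileup 3.88, fold 3.08). The library of number 4 had no peak at the latter 3 places. The isotype library of number 3 had 5 peaks with pileups of 2.94 to 4.89, 2 of them inside Itgb5 and 3 in Kalrn, and the isotype library of number 4 had none.

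In the Itgam window the c-Maf antibody library of number 4 had a further peak 23.4 kb before the gene, at chr7:128039180-128039269 (pileup 4.93, fold 3.57). It stood at percentile 21.9 of its list, and number 3 had no counterpart. The isotype library of number 3 had 2 peaks beyond the far end of Itgam, 5376 bp and 45004 bp outside it, both with a pileup of 4.89. No isotype peak lay inside Itgam.

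**Figure D2:**
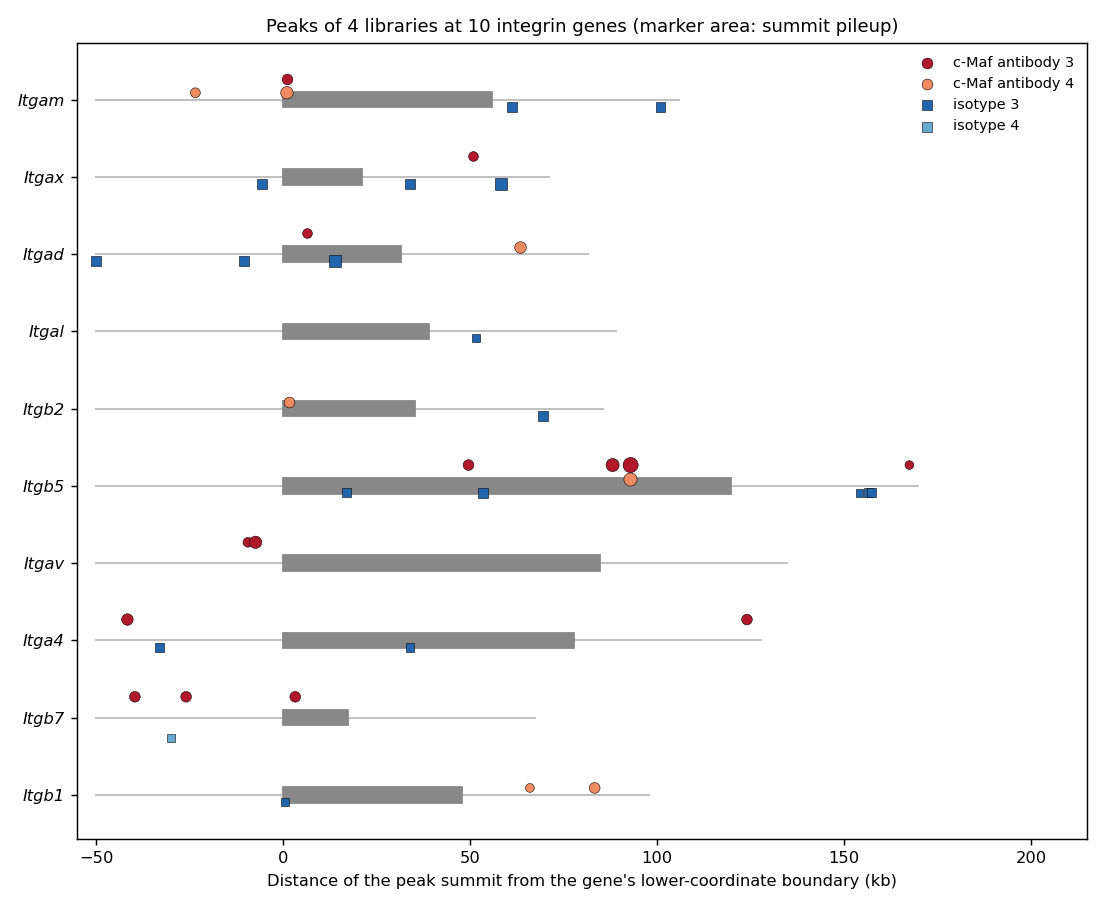
Position of every peak in the 10 windows. The x axis is the distance in kb of the summit from the gene's lower-coordinate boundary, grey boxes are gene spans and thin lines the 50 kb flanks; circles are c-Maf antibody peaks, squares isotype peaks, and marker area follows the summit pileup. Itgam, Itgax and Itgad are neighbours, so some peaks appear in more than 1 row. Circles of both c-Maf antibody libraries coincide at Itgam and Itgb5 and nowhere else.

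The genes that share the CD18 partner with Itgam did not share its region. Itgax, which encodes CD11c, a marker of dendritic cells and some tissue macrophages, had no peak of any library inside the gene. Its window, which overlaps those of Itgam and Itgad, held 1 c-Maf antibody peak and 3 isotype peaks of number 3. The Itgam region lay 65.8 kb outside Itgax.

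Itgad, which encodes CD11d, held a 63 bp c-Maf antibody peak of number 3 at chr7:128180326-128180388, with a pileup of 4.85 and a fold enrichment of 3.86. This stretch also lies in Gm39091, a noncoding RNA gene. Its window held a 60 bp peak of number 4 at chr7:128237165-128237224, with a pileup of 6.91 and a fold enrichment of 5.10, inside the gene 9130023H24Rik. The 2 peaks were 56.8 kb apart, so both libraries had a peak in the window but at different places. An isotype peak of number 3 (pileup 6.85, fold 2.62) also lay inside Itgad.

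Itgal, which encodes CD11a, the alpha chain of the lymphocyte adhesion receptor LFA-1, was the only one of the 10 genes with no c-Maf antibody peak in its window. The other 9 had a peak of either library or both, against 81.3% of all protein-coding genes. The nearest lay 64.0 kb (number 3) and 99.7 kb (number 4) outside it. The isotype library of number 3 had 1 peak there, with a pileup of 3.92.

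Itgb2, which encodes the shared beta chain CD18, held a c-Maf antibody peak of number 4 alone. This 60 bp peak at chr10:77531895-77531954 had its summit 1614 bp inside the lower-coordinate boundary, a pileup of 5.92, or 6 tags (95% exact Poisson interval 2.20 to 13.1), and a fold enrichment of 4.68. It stood at percentile 78.4 of its list, short of a q-value of 0.05. The nearest peak of number 3 was 54.9 kb outside the gene. The only other peak in the window was an isotype peak of number 3 with a pileup of 5.87, 34.1 kb outside.

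At Itgav, the alpha chain partner of Itgb5, both peaks in the window were c-Maf antibody peaks of number 3 and lay before the gene. The stronger, 82 bp at chr2:83714918-83714999, was 7.3 kb outside the gene. Its pileup was 7.76, or 8 tags (95% exact Poisson interval 3.45 to 15.8), and its fold enrichment 5.62. It passed a q-value of 0.05 with a −log10 q of 1.53, and stood at percentile 97.5 of its list. The weaker, 63 bp at chr2:83712882-83712944, was 9.4 kb outside, with a pileup of 4.85 and a fold enrichment of 3.66. The nearest peak of number 4 was 148.6 kb away, and neither isotype library had a peak in the window.

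Itga4, which encodes CD49d, had 2 c-Maf antibody peaks of number 3 far from the gene and none inside it. A 73 bp peak at chr2:79213789-79213861 lay 41.6 kb before the gene, with a pileup of 6.79, a fold enrichment of 5.20 and a percentile of 95.1. A 74 bp peak at chr2:79379366-79379439 lay 46.3 kb beyond it in Cerkl, with a pileup of 5.82 and a fold enrichment of 3.41. The isotype library of number 3 had 2 peaks in the window, both with a pileup of 3.92, and 1 of them was inside Itga4.

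Itgb7, which encodes a beta chain that guides lymphocytes to the gut, had 3 c-Maf antibody peaks, all of number 3 and all with a pileup of 5.82. The one inside the gene was 98 bp long, at chr15:102219185-102219282, 12.7 kb after the start site, with a fold enrichment of 4.54. The others were 123 bp at chr15:102176358-102176480 and 63 bp at chr15:102190044-102190106, the latter in Csad, with fold enrichments of 4.54 and 3.41. The single isotype peak of number 4 in all 10 windows lay here, also in Csad, with a pileup of 3.92.

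Itgb1, the beta chain of most receptors for extracellular matrix, had 2 c-Maf antibody peaks, both of number 4 and both outside the gene. They were 60 bp long each, at chr8:128751597-128751656 (18018 bp outside, pileup 3.95, fold 2.88) and chr8:128768930-128768989 (35351 bp outside, pileup 5.92, fold 3.43). The first stood at percentile 0.56 of its list. An isotype peak of number 3 with a pileup of 3.92 lay inside Itgb1, 626 bp after the start site, closer to a start site than either Itgam summit.

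**Figure D3:**
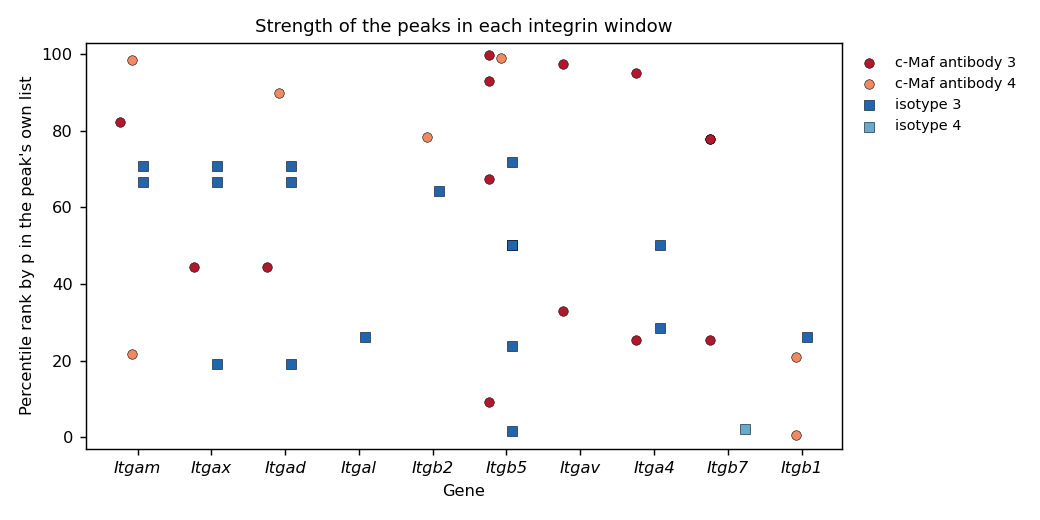
Strength of each peak within its own list. The y axis is the percentile rank by p in the list of the library that holds the peak, with genes on the x axis; circles are c-Maf antibody peaks and squares isotype peaks, and points at equal values lie on each other. Itgb5 has the highest point of each c-Maf antibody library, at 99.8 and 98.9, and no isotype point is above 71.9.

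Peaks at the other 8 chains had lower pileups than the shared peak of Itgb5 in the same list. For Itgam this held in 1 list only. Its number 3 peak, with a pileup of 5.82, was below the highest at Itgav (7.76) and Itga4 (6.79). Its number 4 peak, with 7.89, was above the highest of the others (6.91). Outside the windows of Itgam and Itgb5 the c-Maf antibody library of number 3 had 8 peaks with pileups of 4.85 to 7.76, and that of number 4 had 4 with pileups of 3.95 to 6.91. One of the 8, at Itgav, and none of the 4 passed a q-value of 0.05. Over all 10 windows, 2 of 13 c-Maf antibody peaks of number 3 passed it, at Itgb5 and Itgav, against 3.06% of that whole list. In number 4, 2 of 7 passed, at Itgb5 and Itgam, against 2.87%. Of the 13 isotype peaks of number 3 (0.415% of the whole list) and the 1 of number 4 (2.62%), none passed. The peaks at Itgam and Itgb5 are among those the genes were chosen for.

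Counted without regard to overlap, the share of integrin windows with a c-Maf antibody peak lay near that of all genes. The windows of Itgam, Itgax and Itgad overlap each other, so a peak can count for more than 1 gene. The number 3 peak counted for Itgax is the one inside Itgad. Windows with a peak of number 3 numbered 7 of 10, against 66.7% of all protein-coding genes, and windows with a peak of number 4 numbered 5, against 53.8%. Peaks of both, overlapping or not, lay in the windows of 3 genes, Itgam, Itgad and Itgb5, against 39.2% of all genes. With 100 kb on each side it was 8 of the 10, against 64.2%, so this count follows the width of the window. Inside the gene span there were 4 genes in number 3 (23.1% of all genes) and 3 in number 4 (17.6%). These counts include Itgam and Itgb5, which were selected for such peaks. Of the other 8 chains, 2 held a peak of number 3 (Itgad and Itgb7) and 1 a peak of number 4 (Itgb2). Both libraries had a peak inside 2 genes, Itgam and Itgb5, against 9.93%. The 10 genes are long, with a median span of 43.5 kb against 17.2 kb for all, and a longer gene has more room for a peak. The part of length in these counts was not tested.

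Isotype peaks were uneven between the 2 control libraries. Number 3 had a peak in the window of 8 of the 10 genes, against 85% of all genes, and number 4 in 1, against 47.3%. Itgam, Itgax and Itgad were counted through shared peaks of number 3, since their windows overlap. No integrin window held peaks of both isotype libraries, whereas 42.5% of all genes did, and none held an isotype-only region, against 1.45%. With 100 kb on each side, 7 of the 10 genes had peaks of both isotype libraries, against 65% of all genes.

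The windows, joined where they overlapped, covered 1.36 Mb in 8 stretches. Per Mb they held 9.53 c-Maf antibody peaks of number 3, against 8.53 over all assembled chromosomes, a ratio of 1.12 (95% exact Poisson interval 0.595 to 1.91). For number 4 the ratio was 0.803 (0.323 to 1.65), from 5.13 against 6.39 peaks per Mb. For the isotype the ratio over all 10 windows was 0.443 (0.236 to 0.758) in number 3 and 0.130 (0.00329 to 0.724) in number 4. The intervals cover counting error only, and the c-Maf antibody counts include the peaks the genes were selected for. In the windows left after those of Itgam, Itgax, Itgad and Itgb5 were taken out, the c-Maf antibody ratios were 0.910 (0.366 to 1.88) in number 3 and 0.520 (0.107 to 1.52) in number 4. The isotype ratios there were 0.258 (0.0838 to 0.602) and 0.197 (0.00498 to 1.10), so the interval of number 4 then held a ratio of 1. The isotype of number 3 was not sparse everywhere, with a ratio of 1.06 (0.344 to 2.47) in the Itgb5 window. The c-Maf antibody ratios in the Itgb5 window were 2.14 (0.582 to 5.47) in number 3 and 0.712 (0.0180 to 3.97) in number 4. Both intervals held a ratio of 1. Local sequence content, such as repeats, was not measured and its part in the isotype ratios was not tested.

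**Figure D4:**
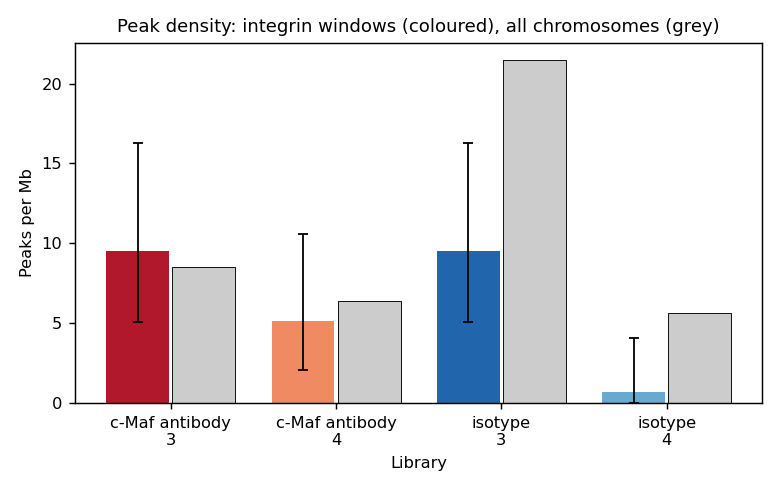
Peaks per Mb in the joined integrin windows (coloured bars) and over all assembled chromosomes (grey bars) for each library, on the x axis. Error bars are 95% exact Poisson intervals of the window counts of 13, 7, 13 and 1 peaks. The grey bar lies within the error bar for both c-Maf antibody libraries and above it for both isotype libraries.

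The c-Maf antibody peak just inside the window edge of 50 kb lay 47.7 kb outside Itgb5 (pileup 3.88), and the one just beyond it 53.6 kb outside Itga4 (number 4, pileup 3.95), followed by one 54.9 kb outside Itgb2 (number 3, pileup 5.82, fold 4.55). For the isotype the values were 49996 bp outside Itgad (number 3, pileup 4.89) and 52.2 kb outside Itga4 (number 4, pileup 5.89, fold 4.77). Some peaks just outside the windows were thus as high as peaks inside them.

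Genes that work with these receptors were examined in the same way. The lists held 16 other integrin chains, 14 genes of integrin activation, 20 ligands and 25 signalling genes, and all 75 were found in the gene table. c-Maf-only regions lay in the windows of 3 of the 75, Itga9, Tln2 and Rac1, near the 3.17% of all genes. Peaks of both c-Maf antibody libraries, overlapping or not, were in the windows of 6 other chains, 7 activation genes, 6 ligand genes and 8 signalling genes, 27 of 75 against 39.2% of all genes. Peaks of both isotype libraries were in the windows of 32 of the 75, against 42.5%. An isotype-only region lay in the window of 1 of the 75, near the 1.45% of all genes. That gene was Fn1, which encodes the matrix ligand fibronectin.

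Tln2 encodes a talin, a cytoskeletal protein that binds the tails of beta chains and switches integrins on. Its region, inside the gene at chr9:67378872-67379034, ranked close to that of Itgb5. Pileups were 12.62 and 8.88 in numbers 3 and 4, fold enrichments 8.35 and 6.18, and −log10 q values 6.34 and 2.06, and it ranked 18th of the 491. Itga9 encodes an alpha chain that pairs with the Itgb1 product, and its region at chr9:118674350-118674489 had pileups of 8.74 and 7.89 and fold enrichments of 4.87 and 4.45. Neither peak of Itga9 passed a q-value of 0.05. By mean percentile the Itga9 region ranked 83rd of the 491, just below that of Itgam, which ranked 82nd. The region counted for Rac1, a GTPase below integrins, lay 29.99 kb outside it in Daglb, with fold enrichments of 5.54 and 3.95.

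Among the 85 genes of all lists, 2 had a peak within 250 bases before to 50 bases after a start site of the promoter table, which lets the letters under a peak be shown. The share of all genes with such a peak was not computed, so nothing is read from the count. The 2 genes were picked after these positions were seen. Rassf5 encodes a Rap1 effector that activates LFA-1, and its peak was a c-Maf antibody peak of number 3. Fgb encodes a chain of fibrinogen, a ligand of the Itgam receptor, and its peak was an isotype peak of number 3. Both are on the minus strand and are given in the direction of the gene, with TCAGCA (the reverse of TGCTGA) or TGANTCA in capitals.
Rassf5 peak, chr1:131200197-131200267, minus strand: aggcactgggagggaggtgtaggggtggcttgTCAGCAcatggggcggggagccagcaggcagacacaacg
Fgb peak, chr3:83050030-83050082, minus strand: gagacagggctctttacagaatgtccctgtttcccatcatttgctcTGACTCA
The Rassf5 peak had a pileup of 7.76, or 8 tags (95% exact Poisson interval 3.45 to 15.8), a fold enrichment of 5.71 and a −log10 q of 1.62, with its summit 52 bases before the start site. No peak of another library lay within 10 kb of it. TGCTGA occurs on either strand in 4.82% of all promoters in the same 71-base stretch. The Fgb peak had a pileup of 5.87, a fold enrichment of 4.49 and a −log10 q of 0.22, and TGANTCA occurs in 1.25% of promoters in the same 53-base stretch. TGANTCA was not found in the Rassf5 peak, nor TGCTGA in the Fgb peak. Most promoters lack them there too: they occur in 1.92% and 3.38% of promoters in the same stretches. With 1 picked peak of each antibody, nothing is read from the difference in motifs.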

How the data were processed

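Peaks were called by the authors for each library alone with MACS 2.1.1.20160309 (single-end reads, p cut-off 0.01, 1 tag kept per position, input of number 4 as control), per the file headers. The headers give the human genome size, and the submitters' processing notes name mm10, MACS 1.4.2 and FastQC. No source used here names the aligner. Deposited values are the summit pileup signal, the fold enrichment ratio, and −log10 of p and q. In each list 99.99% or more of the deposited p-values could be recomputed from pileup and input level (tolerance 0.02 in −log10).

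Peaks of the 4 lists overlapping by 1 bp were merged into regions (Python 3.11.15, pandas 2.3.3, scipy 1.17.1), tested on simulated lists. Tags were pileups divided by the scaling factor. Chromosome lengths were the largest peak ends. The gene table gives no exons, and no genome sequence was used, so the sequence under most peaks is not analysed here. The named genes were the 10 chains with every peak and those genes of 4 partner lists that had a c-Maf-only region; the genes and lists were chosen with earlier results of these data known. Alternatives covered threshold, list length, window, overlap, each library left out and the replicate number.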

Additional observations from a re-analysis of the deposited data

How the results depend on the processing

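The regions of both Itgam and Itgb5 were found with lists of equal length, with the gene span alone or with 5 kb, with summits within 200 bp, and without either isotype library. At a p-value of 1e-05 or smaller, and at a q-value of 0.05 or smaller, 1 region (Itgb5), 1 gene with peaks of both c-Maf antibody libraries (Itgb5) and 1 gene of the other lists (Tln2) were left. Itgam, Itgad, Itga9 and Rac1 dropped out, each with a peak in at least 1 c-Maf antibody library that missed these thresholds. At a reciprocal overlap of 50%, 1 region (Itgam) was left, since the Itgb5 peaks share 43.6% of the longer peak. With 100 kb, 8 genes held peaks of both c-Maf antibody libraries (64.2% of all genes) and 7 of both isotype libraries (65%). The 2 c-Maf-only regions then lay in the windows of 3 integrin genes, Itgam, Itgax and Itgb5. Itgax was added because the Itgam region fell in its wider window. In the other lists, 6 genes held a c-Maf-only region. The share of all genes with such a region was not computed with 100 kb, so nothing is read from the counts of 3 and 6.

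Leaving out each library in turn gave 2 to 13 c-Maf-only regions at 2 to 7 genes, 0 to 13 isotype-only regions, 3 to 7 genes with peaks of every c-Maf antibody library left, 0 to 8 genes with peaks of every isotype library left, and 3 to 52 genes of the other lists with a c-Maf-only region. Without either c-Maf antibody library the c-Maf-only counts were 7 (number 3 left out) and 13 (number 4), since a lone list is not filtered by a replicate. A peak of the lone list lay in the windows of 5 genes (number 3 left out, 53.8% of all genes) and 7 genes (number 4 left out, 66.7%). Shares of all genes with a c-Maf-only region were not computed with a library left out, so nothing is read from those counts. With the number as a replicate block, where each peak had to be free only of the isotype list of its own number, there were 2 c-Maf-only and 0 isotype-only regions, so no count changed. No label says that libraries of 1 number share an animal or a day. The counts for the other lists were chosen after the data were seen. Peaks of 3 to 12 tags limit every position given.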
